A study of Mus musculus with 12 samples.

Results

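The 34 genes described here mark the endothelium, the layer of cells that lines blood vessels, or carry out its functions. They were taken by symbol from the table of gene counts, and all 34 were found among its 55421 genes. They fall into 5 groups by role. The first 5 (Pecam1, Cdh5, Cldn5, Esam and Icam2) hold neighbouring cells together, and 6 are receptors for VEGF and angiopoietins or act on them (Kdr, Flt1, Flt4, Tek, Tie1 and Ptprb). Another 4 are transcription factors (Erg, Sox7, Sox17 and Sox18), and 10 are other receptors and regulators of vessel growth (Eng, Robo4, S1pr1, Emcn, Egfl7, Mmrn2, Clec14a, Rasip1, Ushbp1 and Myct1). The remaining 9 are named here for haemostasis, nitric oxide, caveolae and transport (Vwf, Nos3, Cav1, Plvap, Gpihbp1, Aqp1, Ly6c1, Ctla2a and Ctla2b). Ly6c1, Ctla2a and Ctla2b were placed in this group without having those roles.

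Endothelial cells of the heart form a dense bed of capillaries between the muscle cells, through which oxygen and fatty acids reach the muscle. VEGF, made by surrounding cells, acts on the receptor encoded by Kdr to drive growth and permeability of vessels, and angiopoietins act on Tek to keep resting vessels stable. Transcription factors of the ETS family, such as Erg, and of the SoxF subfamily, Sox7, Sox17 and Sox18, maintain the endothelial programme. Several of these transcripts are also made by other cells, among them Vwf in megakaryocytes and platelets, Ly6c1 in monocytes, Cav1 in adipocytes and smooth muscle and Aqp1 in red blood cells.

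Ventricles of wild-type mice were profiled by RNA sequencing in 3 groups of 4 animals. Mice of the Ang II_FI group were infused with angiotensin II, a hormone that constricts vessels and enlarges the heart, from an osmotic minipump placed under the skin of the dorsal neck, together with Forsythoside I (FI). FI was injected intraperitoneally at 50 mg/kg on alternate days, the first dose on the day before the pump was placed and the last by day 14. Mice of the Ang II group received the same infusion with vehicle, and mice of the Con group received saline with vehicle. No group received FI with saline, and the labels give neither age, sex nor the dose of angiotensin II.

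The 12 libraries held 68874852 to 80624227 counts, 29.1% to 38.8% of them on genes of the mitochondrial genome. Values are counts per 1000000 of the library total (CPM), and the least count of any member in any library was 269, for Ctla2b. Heart muscle was present throughout, the summed CPM of 12 cardiomyocyte genes being 47913 to 59006 in Ang II_FI, 44779 to 50744 in Ang II and 50736 to 65671 in Con. The library Ang II_FI 3 stood apart: 19 hepatocyte genes summed to 27978 CPM in it, against 95.04 CPM in Ang II 3 and 27.6 to 43.2 CPM in the other 10. The main results on Ang II_FI are therefore given with and without Ang II_FI 3. That library also widened the spread, the common biological coefficient of variation being 0.343 in all 12 libraries and 0.269 without it.

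Levels differed widely between members. Scaled to exon length and averaged over the 12 libraries, the level was highest for Aqp1, a water channel, at 127 CPM per kb. Next came Ly6c1, a surface protein anchored by lipid, at 50.3 CPM per kb, and Cdh5, the cadherin of endothelial junctions, at 36.6 CPM per kb. Gpihbp1, which carries lipoprotein lipase across capillary endothelium to its luminal side, followed at 28.6 CPM per kb. The lowest levels were those of Vwf (2.21 CPM per kb), Sox17 (1.799) and Flt4 (1.43). Exon length was merged over all models of a gene and can exceed that of a single transcript, so this order depends on it. It was 16064 bases for Vwf, and 1723 bases for Ctla2b, against 842 in the Ctla2b transcript aligned below. All 34 members passed the low-count filter and stood among the 17376 genes tested.

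**Figure D1:**
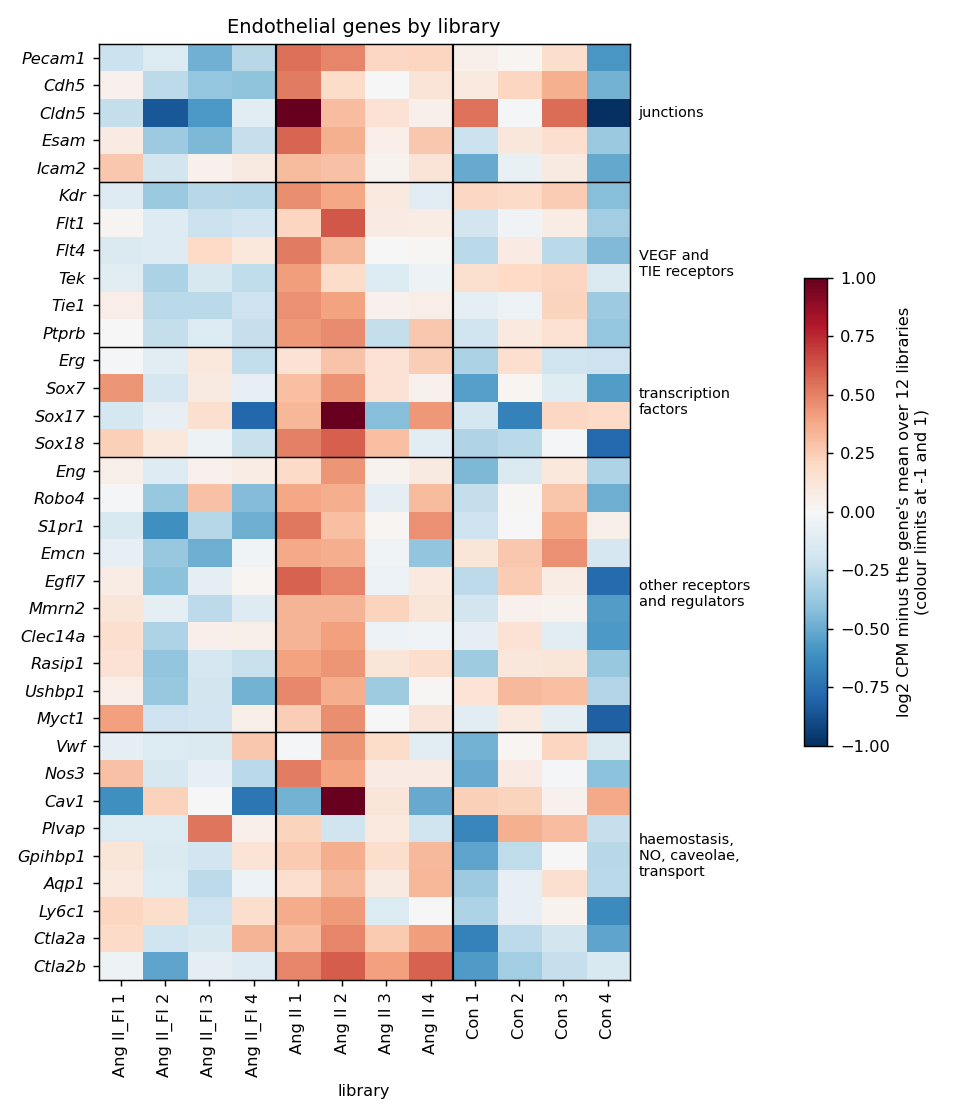
Level of the 34 endothelial genes (rows, grouped by role) in each of the 12 libraries (columns, Ang II_FI, Ang II and Con from left to right) as log2 CPM minus the mean of that gene over all libraries, with colours cut at -1 and 1. Ang II 1 and Ang II 2 hold the highest Ang II value for 16 and 17 members, and Ang II 3 the lowest for 24.

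The comparison of Ang II with Con asks how endothelial transcripts change in ventricles under angiotensin II. Of the 34 members 3 rose, Ctla2b, Ctla2a and Gpihbp1, and 0 fell, as judged by edgeR (quasi-likelihood test, Benjamini-Hochberg adjusted p under 0.05). Among all tested genes 273 rose (1.57%) and 115 fell (0.662%), and scaled to total counts alone 261 rose and 57 fell. The remaining members mostly lay higher without passing the threshold: 29 of 34 had a log2 fold change above 0, as did 50.6% of all genes, and the median over members was 0.36, against 0.00 over all genes. An unadjusted p under 0.05 was reached by 18 members on the higher side, where 9.37% of all genes reached it, and by 0 on the lower side, where 7.41% did. In this bulk RNA, fewer or more endothelial cells and less or more RNA per cell cannot be told apart.

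The closely related genes Ctla2a and Ctla2b encode small proteins akin to the inhibitory propeptides of cysteine cathepsins. They lie near each other on the minus strand of chromosome 13 (here and for later genes, coordinates are of GENCODE M21 on GRCm38), Ctla2a at 60934155 to 60936625 and Ctla2b at 60895350 to 60897447. Their promoters are shown because both members rose and the windows differ in the letters that ETS factors bind. The RefSeq sequences (GRCm38.p6) of the 250 bases before each start are given in the direction of the gene, from chr13:60936626-60936875 for Ctla2a and chr13:60897448-60897697 for Ctla2b, both on the minus strand. Capitals mark the ETS letters AGGAAG or CGGAAG on either strand.
Ctla2a: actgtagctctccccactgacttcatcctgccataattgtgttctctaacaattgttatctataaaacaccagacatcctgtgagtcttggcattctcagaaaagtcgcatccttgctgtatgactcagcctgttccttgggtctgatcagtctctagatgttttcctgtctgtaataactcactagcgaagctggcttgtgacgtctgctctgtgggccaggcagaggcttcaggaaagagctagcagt
Ctla2b: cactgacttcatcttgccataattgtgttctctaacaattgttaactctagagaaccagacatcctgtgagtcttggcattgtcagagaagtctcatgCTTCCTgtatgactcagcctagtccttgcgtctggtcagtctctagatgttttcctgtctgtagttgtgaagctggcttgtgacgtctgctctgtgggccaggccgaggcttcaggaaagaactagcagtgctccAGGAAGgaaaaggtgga
Aligned to each other, 208 of 228 bases matched (91.2%). The Ctla2b window held AGGAAG letters at 2 places, and the Ctla2a window held none of the ETS letters. At the first place, CTTCCT, Ctla2a reads cttgct. The second lies past the shared letters ctagcagt with which the Ctla2a window ends, so Ctla2a was not read there. The letters TATAAA occurred once in the Ctla2a window and not in that of Ctla2b.

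Ctla2b had 5.53, 3.96, 5.35 and 5.23 CPM in Ang II_FI libraries 1 to 4, 8.01, 8.68, 7.60 and 8.62 CPM in Ang II and 3.85, 4.50, 4.88 and 5.15 CPM in Con. All 4 Ang II libraries lay above all 8 others, while Ang II_FI and Con overlapped. Against Con it rose by 0.83 ± 0.13 on the log2 scale in Ang II (SE; 1.77-fold, edgeR adjusted p = 0.0121). This call held with each of the 12 libraries left out in turn, at 0.77 to 0.88. Ctla2a had 19.4, 14.8, 15.2 and 21.5 CPM in Ang II_FI, 21.1, 23.8, 20.3 and 22.7 CPM in Ang II and 10.6, 14.2, 14.9 and 11.8 CPM in Con. Each Ang II library exceeded each Con library, and the Ang II_FI libraries reached from the top of Con into the range of Ang II. Ctla2a rose by 0.76 ± 0.15 on the log2 scale in Ang II against Con (1.69-fold, edgeR adjusted p = 0.0233). Its call was lost in 5 of the 12 fits with a library left out, namely without Ang II 2, Ang II 3, Ang II 4, Con 1 or Con 4, at 0.69 to 0.82.

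Reads can be shared between the pair: 842 aligned transcript bases were 90.9% identical, although only 94 of 1324 windows of 50 bases in Ctla2a (7.1%) and 94 of 793 in Ctla2b (11.9%) occurred in both. With the counts of the pair summed, the log2 fold change of Ang II against Con was 0.78 (edgeR adjusted p = 0.0138). Ctla2b also overlaps the gene models Gm49391 and Gm49392 on the same strand, by 1425 bases added over both, against its 1723 exon bases. Summed with these models it rose by 0.87 on the log2 scale (edgeR adjusted p = 0.0138). Any reads left out as ambiguous would be missing from that sum too. How reads in such overlaps were assigned is not stated in the labels.

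Gpihbp1 (chromosome 15, 75596628 to 75599481) had 78.2, 64.9, 62.9 and 79.1 CPM in Ang II_FI, 86.0, 92.2, 81.004 and 89.96 CPM in Ang II and 49.9, 60.2, 72.0 and 59.1 CPM in Con. Ang II lay above the other groups in all 4 libraries, and the ranges of Ang II_FI and Con overlapped. It rose by 0.52 ± 0.11 on the log2 scale in Ang II against Con (1.43-fold, edgeR adjusted p = 0.0385). The call was lost in 7 of 12 fits with a library left out, those without any Ang II library and those without Con 1, Con 2 or Con 4, at 0.46 to 0.60. Without a low-count filter it was also lost (edgeR adjusted p = 0.0674). Of the other members of its role group, Aqp1 averaged 311 ± 32.9 CPM in Ang II_FI, 389 ± 32.3 CPM in Ang II and 303 ± 49.2 CPM in Con (SD, n = 4 each, as for the means that follow). Nos3, the endothelial nitric oxide synthase, averaged 31.2 ± 5.56 CPM in Ang II_FI, 38.9 ± 5.95 CPM in Ang II and 28.0 ± 5.55 CPM in Con. Both had an unadjusted p under 0.05 in Ang II against Con without passing the adjustment (log2 fold changes 0.34 and 0.45, edgeR adjusted p = 0.152 and 0.148). Ly6c1 averaged 88.4 ± 11.4 CPM in Ang II_FI, 93.9 ± 17.7 CPM in Ang II and 70.5 ± 13.8 CPM in Con. Vwf, which tethers platelets to the vessel wall, averaged 34.7 ± 5.15, 38.6 ± 6.71 and 33.3 ± 6.50 CPM in Ang II_FI, Ang II and Con. Its log2 fold change in Ang II against Con was 0.20 ± 0.16 (edgeR adjusted p = 0.602).

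Cav1, the coat protein of caveolae, and Plvap, which forms the diaphragms of caveolae and fenestrae, did not go with the rest. Cav1 averaged 24.8 ± 7.96 CPM in Ang II_FI, 33.6 ± 19.4 CPM in Ang II and 33.8 ± 3.21 CPM in Con, and its 61.6 CPM in Ang II 2 stood against 20.4 to 31.4 CPM in the other Ang II libraries. Plvap averaged 10.2 ± 2.41 CPM in Ang II_FI, 9.41 ± 1.39 CPM in Ang II and 9.48 ± 2.93 CPM in Con. Log2 fold changes in Ang II against Con were -0.03 ± 0.33 for Cav1 and -0.02 ± 0.21 for Plvap, on either side of 0 depending on which library was left out.

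**Figure D2:**
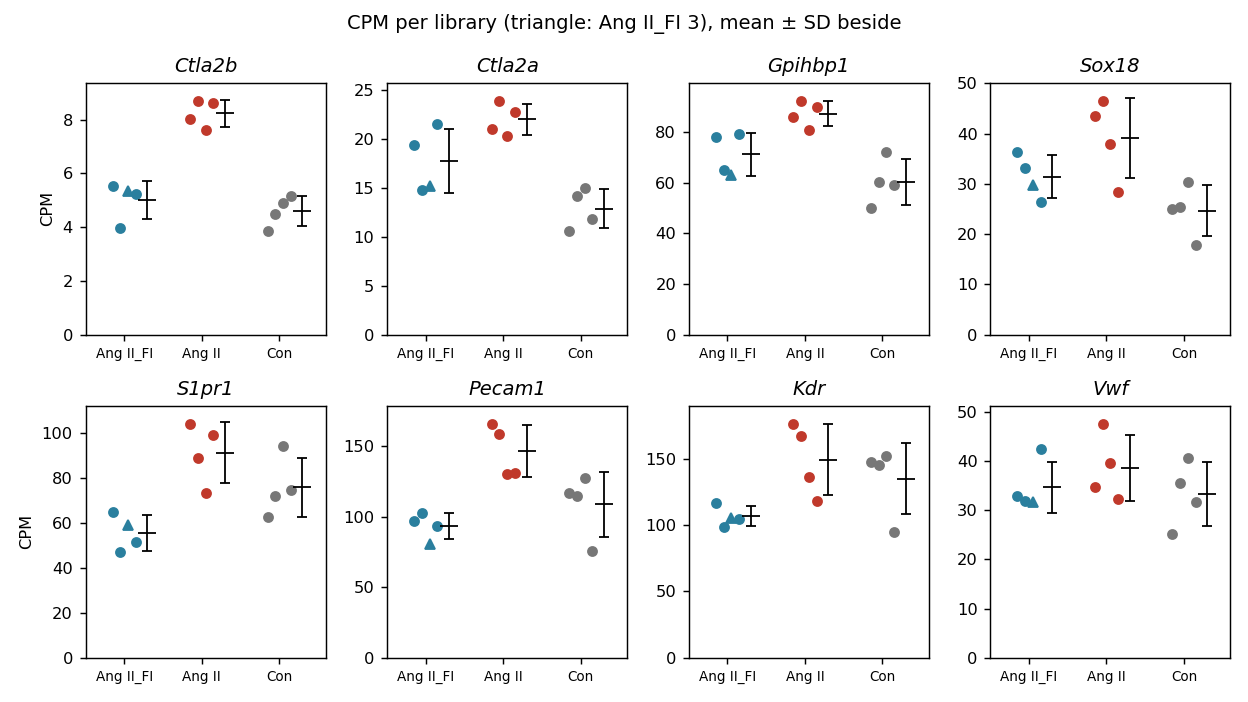
CPM in each library for 8 endothelial genes, in Ang II_FI (left), Ang II (middle) and Con (right), with the mean ± SD (n = 4) beside each group and a triangle for Ang II_FI 3. For Ctla2b all Ang II points lie above all others, for S1pr1 all Ang II_FI points lie below all Ang II points, and for Vwf the groups overlap.

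All 4 transcription factors lay higher in Ang II than in Con, with log2 fold changes of 0.32 to 0.64, and 0 of them passed the threshold. Sox18 (chromosome 2, 181669836 to 181671640) had 36.3, 33.1, 29.7 and 26.4 CPM in Ang II_FI, 43.6, 46.4, 37.9 and 28.4 CPM in Ang II and 25.0, 25.4, 30.4 and 17.9 CPM in Con. Ang II 4 lay within the range of Con and the other 3 Ang II libraries above it, and its log2 fold change was 0.64 ± 0.18 (edgeR adjusted p = 0.0826). DESeq2 placed Sox18 past the threshold (adjusted p = 0.0132). Sox7 (chromosome 14, 63943673 to 63950732) had 25.3, 16.5, 19.8 and 17.6 CPM in Ang II_FI, 22.9, 25.4, 20.5 and 19.2 CPM in Ang II and 12.7, 18.8, 17.1 and 12.7 CPM in Con. Every Ang II library exceeded every Con library, with a log2 fold change of 0.51 ± 0.16 (edgeR adjusted p = 0.128). Erg averaged 11.6 ± 1.205 CPM in Ang II_FI, 13.9 ± 0.685 CPM in Ang II and 11.0 ± 1.73 CPM in Con. Sox17 averaged 7.16 ± 1.81 CPM in Ang II_FI, 10.9 ± 4.25 CPM in Ang II and 7.71 ± 2.03 CPM in Con, its Ang II libraries spreading from 6.04 to 16.4 CPM.

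Among the receptors for VEGF and angiopoietins, 5 of 6 had a log2 fold change above 0 in Ang II against Con, and 0 passed the threshold. Flt1, the VEGF receptor that binds the ligand tightly and signals weakly, averaged 71.2 ± 5.59 CPM in Ang II_FI, 93.3 ± 17.8 CPM in Ang II and 71.7 ± 9.00 CPM in Con. Flt4, the receptor for VEGF-C, averaged 11.72 ± 1.39 CPM in Ang II_FI, 13.6 ± 2.40 CPM in Ang II and 10.0 ± 1.60 CPM in Con. Log2 fold changes in Ang II against Con were 0.36 ± 0.13 for Flt1 and 0.42 ± 0.13 for Flt4 (edgeR adjusted p = 0.174 and 0.129). Ptprb, a phosphatase that acts on Tek and on Cdh5 complexes, averaged 75.6 ± 5.79 CPM in Ang II_FI, 100.3 ± 20.6 CPM in Ang II and 80.1 ± 13.8 CPM in Con. Log2 fold changes in Ang II against Con were 0.12 ± 0.15 for Kdr and -0.02 ± 0.11 for Tek, each with overlapping groups (edgeR adjusted p = 0.778 and 0.956).

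Of the 10 other receptors and regulators, 8 had a log2 fold change above 0 in Ang II against Con, and 0 passed the threshold. Eng (endoglin, chromosome 2, 32646595 to 32682669), a co-receptor for the TGF-beta family, had 96.3, 84.7, 95.5 and 97.9 CPM in Ang II_FI, 106, 126, 94.8 and 98.6 CPM in Ang II and 67.9, 83.9, 99.9 and 74.9 CPM in Con. Only Con 3 reached into the range of Ang II, and the log2 fold change was 0.37 ± 0.11 (edgeR adjusted p = 0.108; DESeq2 adjusted p = 0.0433). Egfl7, a protein that endothelial cells secrete into the matrix, averaged 70.8 ± 9.97 CPM in Ang II_FI, 93.3 ± 19.7 CPM in Ang II and 69.2 ± 20.04 CPM in Con. Mmrn2, a matrix protein that binds Clec14a, averaged 25.5 ± 2.87 CPM in Ang II_FI, 32.3 ± 2.28 CPM in Ang II and 24.4 ± 4.50 CPM in Con. Its 4 Ang II libraries lay above all 4 Con libraries, with a log2 fold change of 0.39 ± 0.14 (edgeR adjusted p = 0.172). Clec14a, a lectin-like receptor, averaged 23.1 ± 3.11 CPM in Ang II_FI, 26.1 ± 4.39 CPM in Ang II and 20.999 ± 4.13 CPM in Con. Rasip1, which is needed for vessel lumens to form, averaged 22.4 ± 3.57 CPM in Ang II_FI, 30.4 ± 3.36 CPM in Ang II and 23.1 ± 4.44 CPM in Con. Those 2 members had log2 fold changes of 0.29 and 0.38 in Ang II against Con (edgeR adjusted p = 0.406 and 0.191). Robo4, a guidance receptor that stabilises vessels, had 22.3, 17.3, 27.7 and 16.7 CPM in Ang II_FI, and averaged 26.9 ± 3.88 CPM in Ang II and 21.3 ± 4.83 CPM in Con. Myct1 averaged 26.5 ± 5.60 CPM in Ang II_FI, 30.0 ± 4.16 CPM in Ang II and 22.6 ± 5.54 CPM in Con.

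Emcn and Ushbp1 were the members of this role group with a log2 fold change below 0. Emcn, a sialomucin of capillary and venous endothelium, averaged 39.0 ± 5.92 CPM in Ang II_FI, 49.8 ± 12.0 CPM in Ang II and 52.4 ± 9.36 CPM in Con. Ushbp1 averaged 42.5 ± 7.22 CPM in Ang II_FI, 55.5 ± 13.8 CPM in Ang II and 54.7 ± 10.1 CPM in Con. Their log2 fold changes in Ang II against Con were -0.10 ± 0.18 and -0.01 ± 0.18, within the spread between libraries.

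The 5 junction genes had log2 fold changes of 0.12 to 0.41 in Ang II against Con, with 0 past the threshold. Pecam1 (CD31, chromosome 11, 106654217 to 106750628), an adhesion molecule at contacts between endothelial cells, had 97.1, 103, 80.8 and 93.4 CPM in Ang II_FI, 165, 158, 130.1 and 131 CPM in Ang II and 117, 115, 128 and 75.3 CPM in Con. The Ang II libraries lay above all others, Con 4 was lowest, and the log2 fold change in Ang II against Con was 0.41 ± 0.15 (edgeR adjusted p = 0.199). Cdh5 averaged 127 ± 19.1 CPM in Ang II_FI, 175 ± 28.3 CPM in Ang II and 159 ± 36.3 CPM in Con. Cldn5, a tight-junction protein, averaged 9.75 ± 2.18 CPM in Ang II_FI, 19.4 ± 9.51 CPM in Ang II and 14.2 ± 6.36 CPM in Con. The large SD of Cldn5 reflects 33.5 CPM in Ang II 1, against 13.5 to 16.1 CPM in the other Ang II libraries.

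In all, 6 members had all 4 Ang II libraries above all 4 Con libraries in CPM (Pecam1, Sox7, Mmrn2, Gpihbp1, Ctla2a and Ctla2b), and 0 had them all below. Among all tested genes these shares were 7.74% and 4.56%. Scaled by TMM factors, 11 members separated, where 7.36% of all genes did. DESeq2 called 5 members higher, adding Sox18 and Eng, and 0 lower (3.83% and 2.49% of all genes), and limma-voom called 3 higher and 0 lower (1.77% and 0.886%). With Ang II_FI 3 left out of the shared fit, 3 members were called higher and 0 lower, where 2.49% and 1.37% of all genes were.

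**Figure D3:**
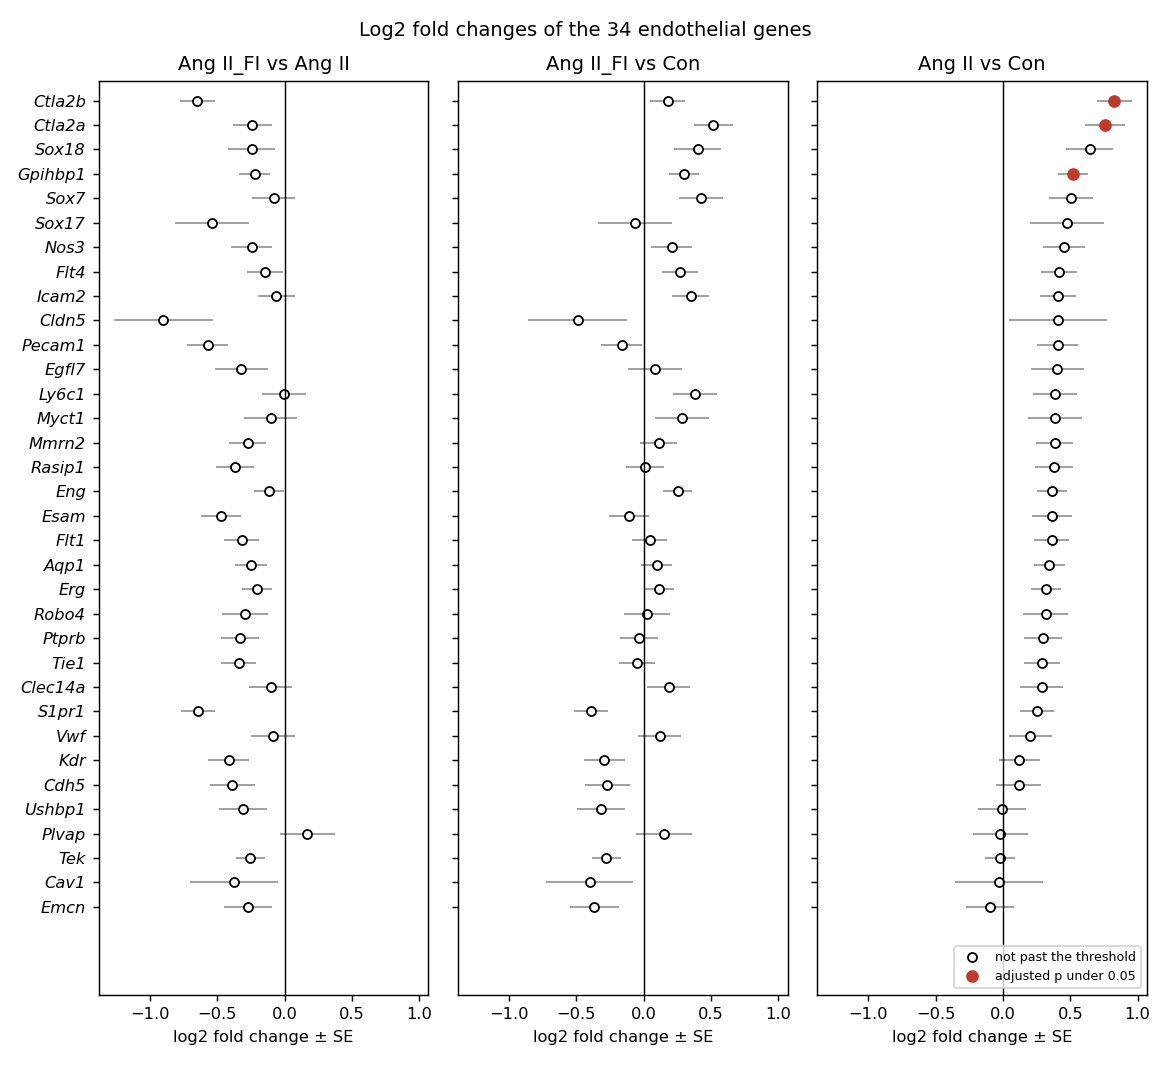
Log2 fold change ± SE of each of the 34 endothelial genes in Ang II_FI against Ang II (left), Ang II_FI against Con (middle) and Ang II against Con (right), sorted by the right panel. Filled points passed an edgeR adjusted p of 0.05, as Ctla2b, Ctla2a and Gpihbp1 did in the right panel alone, and 33 of 34 points lie below 0 in the left panel.

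Adding FI to angiotensin II is the comparison of Ang II_FI with Ang II. No member was called, as was no gene of the 17376 tested (0%), the smallest edgeR adjusted p of a member being 0.411. Levels of the members nevertheless lay on the lower side: 33 of 34 had a log2 fold change below 0, as did 46.9% of all genes, and Plvap alone lay above. The median over members was -0.27, against 0.02 over all genes. Without Ang II_FI 3 these values were 32 of 34 (50.4% of all genes), with Plvap and Ly6c1 above 0, and a median of -0.24. An unadjusted p under 0.05 was reached by 12 members on the lower side, where 4.49% of all genes reached it, and by 0 on the higher side, where 5.46% did. Without Ang II_FI 3 it was reached by 7 (Pecam1, Esam, Kdr, Robo4, S1pr1, Rasip1 and Ctla2b), where 4.56% of all genes did so, and edgeR called 0 members and 1 of 17702 genes (0.00565%). The Ang II libraries are the same as in the comparison with Con, so a high value in them enters both with opposite sign.

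The lowest p was that of S1pr1 (chromosome 3, 115710433 to 115715072), the receptor through which circulating sphingosine-1-phosphate tightens endothelial junctions. S1pr1 had 64.8, 47.0, 59.1 and 51.2 CPM in Ang II_FI, 104, 88.7, 73.1 and 98.9 CPM in Ang II and 62.4, 71.6, 93.9 and 74.6 CPM in Con. Every Ang II_FI library lay below every Ang II library, and only Ang II_FI 1 reached into the range of Con. The log2 fold change of Ang II_FI against Ang II was -0.64 ± 0.13 (0.640-fold, edgeR adjusted p = 0.411), and -0.64 without Ang II_FI 3. DESeq2 called S1pr1 (adjusted p = 0.00873) and Ctla2b (adjusted p = 0.0102) lower and 0 other members in either direction, where it called 0.173% of all genes lower and 0.0691% higher. Limma-voom called 0 members and 0 genes.

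Ctla2b, whose values are given above, had a log2 fold change of -0.65 ± 0.13 in Ang II_FI against Ang II (0.638-fold, edgeR adjusted p = 0.411), and of -0.65 without Ang II_FI 3. Its 4 Ang II_FI libraries lay below the 4 Ang II libraries and within or just above the range of Con. For Ctla2a the log2 fold change was -0.24 ± 0.15 and for Gpihbp1 -0.22 ± 0.11 (edgeR adjusted p = 0.609 and 0.547), and -0.15 and -0.14 without Ang II_FI 3.

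At the junctions, Pecam1 had a log2 fold change of -0.57 ± 0.15 in Ang II_FI against Ang II (edgeR adjusted p = 0.411), with no overlap between the groups, and of -0.48 without Ang II_FI 3. Esam (chromosome 9, 37528078 to 37538319), an adhesion molecule of tight junctions, had 57.0, 41.9, 39.5 and 45.9 CPM in Ang II_FI, 80.6, 68.7, 56.3 and 64.8 CPM in Ang II and 46.4, 58.3, 60.5 and 41.6 CPM in Con. Ang II_FI 1 lay just above Ang II 3, and the groups were otherwise apart. Its log2 fold change in Ang II_FI against Ang II was -0.48 ± 0.15 (edgeR adjusted p = 0.411), and -0.38 without Ang II_FI 3. Cdh5 and Cldn5 had log2 fold changes of -0.39 ± 0.17 and -0.90 ± 0.37 (edgeR adjusted p = 0.483 and 0.468), and of -0.32 and -0.82 without Ang II_FI 3. Without Ang II 1 that of Cldn5 was -0.54. The median of the 5 junction genes was -0.48, the furthest from 0 of the 5 role groups, and -0.38 without Ang II_FI 3.

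All 6 receptors for VEGF and angiopoietins and their partners lay below 0 in Ang II_FI against Ang II, with a median of -0.33 (-0.27 without Ang II_FI 3), and 5 had an unadjusted p under 0.05. Kdr (VEGF receptor 2, chromosome 5, 75932827 to 75978458) had 117, 98.8, 105 and 105 CPM in Ang II_FI, 176, 167, 136 and 118 CPM in Ang II and 147, 145, 152 and 94.8 CPM in Con. The Ang II_FI libraries lay below all Ang II libraries, Ang II_FI 1 only just below Ang II 4. The log2 fold change was -0.41 ± 0.15 (edgeR adjusted p = 0.432), and -0.38 without Ang II_FI 3. Tie1 (chromosome 4, 118471191 to 118490061), the partner receptor of Tek, had 89.5, 70.9, 71.0 and 74.1 CPM in Ang II_FI, 117, 113, 88.1 and 89.4 CPM in Ang II and 79.7, 82.2, 99.7 and 66.5 CPM in Con. Ang II_FI 1 lay within the range of Ang II and the other 3 below it. Its log2 fold change was -0.34 ± 0.13 (edgeR adjusted p = 0.441), and -0.28 without Ang II_FI 3.

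The transcription factors had log2 fold changes of -0.54 to -0.08 in Ang II_FI against Ang II, none with an unadjusted p under 0.05. Their median was -0.22, and -0.21 without Ang II_FI 3. Sox18 was at -0.24 ± 0.18, Sox7 at -0.08 ± 0.16 and Erg at -0.20 ± 0.11, and Erg alone of the 4 had no overlap between these groups. Of the 10 other receptors and regulators, S1pr1 and Rasip1 had an unadjusted p under 0.05, Rasip1 with a log2 fold change of -0.37 ± 0.14 (edgeR adjusted p = 0.441), and of -0.33 without Ang II_FI 3. Eng, at -0.12 ± 0.11, and Clec14a and Myct1, at -0.10 each, lay nearest 0.

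Altogether 9 members had all 4 Ang II_FI libraries below all 4 Ang II libraries in CPM (Pecam1, Cldn5, Kdr, Flt1, Erg, S1pr1, Mmrn2, Gpihbp1 and Ctla2b), where 5.12% of all genes did, and 0 had them above (0.858%). Without Ang II_FI 3 there were also 9, where 9.99% of all genes separated. Scaled by TMM factors 4 did (Pecam1, Cldn5, S1pr1 and Ctla2b), where 3.09% of all genes did. The TMM factors of Ang II_FI 1, 2 and 4 were 0.948, 0.954 and 0.950 and that of Ang II_FI 3 was 1.07, against 0.958 to 1.075 in Ang II.

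Set against Con, the members in Ang II_FI lay on both sides of 0, with 21 above and 13 below, where 53.4% of all genes lay above. The median was 0.09, and 0.09 without Ang II_FI 3, against 0.02 over all genes. No member was called, with or without Ang II_FI 3, where 0.719% of all genes were higher and 0.259% lower by edgeR in all 12 libraries, and 0.932% and 0.311% without Ang II_FI 3. An unadjusted p under 0.05 was reached by 7 members on the higher side (Icam2, Sox7, Sox18, Eng, Gpihbp1, Ly6c1 and Ctla2a), where 10.4% of all genes reached it, and by Tek and S1pr1 on the lower side, where 6.92% did. No member separated these groups in CPM (3.52% of all genes did on the higher side and 6.06% on the lower), and without Ang II_FI 3 Ly6c1 did (4.76%). Scaled by TMM factors, Ctla2a separated on the higher side, and without Ang II_FI 3 Ly6c1 and Ctla2a did. The shares over all genes under that scaling are not given here, so this is not read as a result.

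The smallest p belonged to Ctla2a, with a log2 fold change of 0.52 ± 0.15 in Ang II_FI against Con (edgeR adjusted p = 0.105), and of 0.61 without Ang II_FI 3 (edgeR adjusted p = 0.0556). DESeq2 called Ctla2a and 0 other members (adjusted p = 0.0298), where it called 2.8% of all genes higher and 2.08% lower. S1pr1 stood at -0.39 ± 0.13 (edgeR adjusted p = 0.143), and at -0.40 without Ang II_FI 3. Icam2 (chromosome 11, 106377656 to 106388075), which binds leukocyte integrins, had 30.8, 22.5, 26.3 and 27.2 CPM in Ang II_FI, 31.6, 31.2, 26.2 and 27.9 CPM in Ang II and 17.9, 24.2, 27.1 and 17.8 CPM in Con. Its Ang II_FI and Con libraries overlapped, Con 1 and Con 4 being lowest, at a log2 fold change of 0.35 ± 0.14 (edgeR adjusted p = 0.214), and 0.38 without Ang II_FI 3. Tek (chromosome 4, 94739289 to 94874976) had 43.1, 37.6, 41.9 and 39.2 CPM in Ang II_FI, 62.4, 53.1, 42.4 and 45.0 CPM in Ang II and 52.2, 53.7, 54.3 and 42.3 CPM in Con. Only Con 4 reached into the range of Ang II_FI, and the log2 fold change was -0.28 ± 0.11 (edgeR adjusted p = 0.223), and -0.27 without Ang II_FI 3. Sox7, Gpihbp1 and Sox18 had log2 fold changes of 0.42, 0.30 and 0.40, and 0.45, 0.38 and 0.45 without Ang II_FI 3.

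By role, the median log2 fold changes in Ang II_FI against Con were -0.17 for junction genes, -0.04 for receptors of VEGF and angiopoietins, 0.26 for transcription factors, 0.05 for other receptors and regulators and 0.18 for the remaining 9 members. Without Ang II_FI 3 these were -0.08, -0.002, 0.27, 0.08 and 0.18. In Ang II against Con, whose Con libraries are the same, these medians were 0.41, 0.29, 0.49, 0.34 and 0.39 in that order. Kdr and Cdh5 lay at -0.29 ± 0.15 and -0.27 ± 0.17 and Emcn at -0.37 ± 0.18 in Ang II_FI against Con, within the overlap of the groups, and at -0.26, -0.20 and -0.27 without Ang II_FI 3.

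Most members varied together from library to library. Over the 12 libraries, which share the scaling to library total, the Pearson correlation of log2 CPM between a member and the mean of the other 33 had a median of 0.78, and exceeded 0.5 for 31 members. It was highest for Rasip1 (0.96) and Tie1 (0.95). It was lowest for Cav1 (-0.002), Plvap (0.20) and Sox17 (0.45). The spread within a group was shared as well: Con 4 held the lowest Con value for 22 members and Con 3 the highest for 22, and Ang II 3 held the lowest Ang II value for 24. The mean deviation of the 34 members on the log2 scale was 0.03, -0.23, -0.13 and -0.15 in Ang II_FI 1 to 4, 0.38, 0.42, 0.04 and 0.10 in Ang II and -0.21, 0.02, 0.11 and -0.39 in Con. In these CPM, which are not scaled by TMM factors, all 4 Ang II libraries lay above all Ang II_FI libraries, Ang II 3 only just above Ang II_FI 1. Ang II 3 and Ang II 4 lay within the range of Con, and Ang II 1 and Ang II 2 above it. TMM factors were 0.948 in Ang II_FI 1, 0.958 in Ang II 3, 1.01 in Ang II 4 and 1.04 in Con 3. Gaps as narrow as these between libraries can turn under such scaling, so both orders hold for CPM alone. Summed over members, the level was 1672 to 1981 CPM in Ang II_FI, 1988 to 2547 CPM in Ang II and 1500 to 2168 CPM in Con.

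Group means of some members differed from that shared level, and those furthest from it are given here without a test. Relative to the mean of the other 33, Ctla2b was higher by 0.50 and Ctla2a by 0.44 in Ang II than in Con on the log2 scale, and Sox18 by 0.32. Cav1, Emcn, Tek, Ushbp1 and Plvap were relatively lower, with differences of -0.53, -0.46, -0.37, -0.36 and -0.33. The SD of this relative level between libraries was 0.71 in Ang II and 0.37 in Con for Cav1, whose difference lay within that spread. For Tek it was 0.12 in Ang II and 0.12 in Con. In Ang II_FI against Ang II, Cldn5 (-0.57), Ctla2b (-0.37), S1pr1 (-0.37) and Pecam1 (-0.30) were relatively lower and Plvap (0.47) relatively higher. Without Ang II_FI 3 these were -0.52, -0.41, -0.40, -0.23 and 0.31, and Ly6c1 then stood highest, at 0.39. The SD of the relative level of Cldn5 was 0.29 in Ang II_FI and 0.53 in Ang II, and that of S1pr1 0.12 and 0.21. Plvap had 13.7 CPM in Ang II_FI 3, against 8.599 to 9.80 CPM in the other Ang II_FI libraries. Its relative level in Ang II_FI lay 0.14 above that in Con on the log2 scale. Relative to the other members Ctla2a differed by 0.03 between Ang II_FI and Ang II, and by 0.10 without Ang II_FI 3.

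Of the 34 members, 20 had a promoter in the RefSeq table used. Each was searched over 250 bases before the start, on both strands, for letters that ETS and SOX factors bind and for the TATA box. The ETS letters AGGAAG occurred in 10 of 20 member promoters (50.0%), against 29.5% of 32851 promoters of the same length in the table. The other ETS letters, CGGAAG, occurred in 1 of 20 (5.0%), against 13.6%. Either of the ETS letters occurred in 10 of 20 (50.0%), against 39.2%. Members entered with 1 start each, the nearest to the GENCODE gene start, while the shares over the table count every start in it. Of the SOX letters, ACAAAG occurred in 3 of 20 member promoters and 16.5% of all, and ACAATG in 5.0% and 10.7%. The TATA box, TATAAA, occurred in 25.0% and 12.4%. Those of Eng and Tie1, the members described in full that carry AGGAAG beside Ctla2b, are shown with the ETS letters in capitals, from chr2:32646345-32646594 on the plus strand and chr4:118489850-118490099 on the minus strand (GRCm38.p6). The GENCODE model of Tie1 starts further upstream, so its window lies partly inside that model.
Eng: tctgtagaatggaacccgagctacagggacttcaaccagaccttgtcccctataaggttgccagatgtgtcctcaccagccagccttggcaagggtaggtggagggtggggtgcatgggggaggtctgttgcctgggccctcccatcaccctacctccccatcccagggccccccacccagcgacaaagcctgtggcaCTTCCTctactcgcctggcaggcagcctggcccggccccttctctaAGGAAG
Tie1: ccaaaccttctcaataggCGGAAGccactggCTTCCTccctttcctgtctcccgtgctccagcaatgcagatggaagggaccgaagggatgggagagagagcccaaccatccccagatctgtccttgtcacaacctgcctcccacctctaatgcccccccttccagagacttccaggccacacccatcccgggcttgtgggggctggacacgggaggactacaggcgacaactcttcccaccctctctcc
Eng held AGGAAG at 2 places, and Tie1 held AGGAAG and CGGAAG at 1 place each.

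Genes of other endothelial lists were read in the same fits. Of 12 arterial genes, 0 were called in any comparison. Their log2 fold change was above 0 for 12 of 12 in Ang II against Con (median 0.28) and below 0 for 12 of 12 in Ang II_FI against Ang II (median -0.30, and -0.26 without Ang II_FI 3). The arterial gene of smallest p in Ang II against Con was Notch4, a receptor of the Notch pathway, which averaged 19.1 CPM in Ang II_FI, 24.8 CPM in Ang II and 12.5 CPM in Con (log2 fold change in Ang II against Con 0.97 ± 0.25, edgeR adjusted p = 0.0633). Of 9 venous and endocardial genes, 9 lay above 0 in Ang II against Con (median 0.38) and 5 below 0 in Ang II_FI against Ang II (median -0.12), with 0 called. Ephb4, a venous ephrin receptor, was nearest the threshold, at 0.46 ± 0.11 in Ang II against Con (edgeR adjusted p = 0.0516). The 15 endothelial transcription factors outside the members, 0 of them called, had medians of 0.21 in Ang II against Con and -0.31 in Ang II_FI against Ang II. Another 11 genes of activated or sprouting endothelium had medians of 0.16 and -0.33 in those comparisons, again with 0 called. Without Ang II_FI 3 the medians in Ang II_FI against Ang II were -0.29 for these transcription factors, -0.32 for the activated genes and -0.11 for the venous and endocardial genes.

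Of 9 capillary genes, 6 had a log2 fold change above 0 and 3 below 0 in Ang II against Con (median 0.14). Past the threshold, 1 rose. Timp4, an inhibitor of matrix metalloproteinases, had 51.0, 42.8, 46.2 and 39.6 CPM in Ang II_FI, 30.3, 60.2, 51.3 and 66.1 CPM in Ang II and 17.2, 20.3, 30.3 and 32.6 CPM in Con. Ang II 1 lay within the range of Con and the other 3 Ang II libraries above it. Its log2 fold change in Ang II against Con was 1.05 ± 0.24 (edgeR adjusted p = 0.0483), a call lost in 10 of 12 fits with a library left out and kept without Ang II 1 and without Ang II_FI 3. The 9 capillary genes all lay below 0 in Ang II_FI against Ang II, with a median of -0.23, and -0.14 without Ang II_FI 3.

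Among vascular ligands, 7 of 9 were tested, and Angpt1, the angiopoietin that activates Tek, fell. Angpt1 had 24.6, 18.1, 23.6 and 23.6 CPM in Ang II_FI, 25.0, 22.8, 22.4 and 20.6 CPM in Ang II and 32.8, 41.9, 33.9 and 34.1 CPM in Con. Each Con library lay above all 8 libraries with angiotensin II, and Ang II_FI and Ang II overlapped. Against Con, Angpt1 fell by 0.67 ± 0.11 on the log2 scale in Ang II (edgeR adjusted p = 0.0138, lost without Ang II 4). In Ang II_FI against Con it fell by 0.62 ± 0.11 (edgeR adjusted p = 0.0291, and 0.0353 without Ang II_FI 3). That call was lost in 5 of 12 fits, those without Con 1, Con 2, Con 4, Ang II 2 or Ang II_FI 4. Between Ang II_FI and Ang II its log2 fold change was 0.05 ± 0.11 (edgeR adjusted p = 0.917). Vegfa, the main ligand of Kdr, averaged 131 CPM in Ang II_FI, 134 CPM in Ang II and 149 CPM in Con, with a log2 fold change of -0.17 ± 0.11 in Ang II against Con (edgeR adjusted p = 0.512). Apln, a peptide of sprouting endothelium, averaged 9.32 CPM in Ang II_FI, 13.1 CPM in Ang II and 15.9 CPM in Con, with -0.71 ± 0.17 in Ang II_FI against Con (edgeR adjusted p = 0.0709).

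Markers of other cells of the ventricle also differed between these groups. In Ang II against Con, 6 of 11 fibroblast genes and 5 of 10 macrophage genes rose, with medians of 0.65 and 0.60, and 1 of 13 pericyte and smooth muscle genes rose, with a median of 0.25. That gene was Cnn1, calponin of smooth muscle (log2 fold change 1.33 ± 0.27, edgeR adjusted p = 0.0293, lost without any Ang II library and without Con 1, Con 2 or Con 4). Of 6 lymphatic genes Lyve1, which macrophages also make, rose by 0.72 ± 0.15 on the log2 scale (edgeR adjusted p = 0.0324, lost without Ang II 2, Ang II 3, Ang II 4, Con 1, Con 2 or Con 4). Summed fibroblast genes were at 2272 to 2451 CPM in Ang II_FI, 2566 to 2952 CPM in Ang II and 1831 to 2422 CPM in Con. Macrophage genes summed to 488 to 583 CPM in Ang II_FI, 554 to 633 CPM in Ang II and 346 to 463 CPM in Con, and pericyte and smooth muscle genes to 2322 to 2538, 2356 to 2498 and 1986 to 2241 CPM in the same order. No gene of these 3 lists was at 0 in any library. In Ang II_FI against Ang II their medians were -0.26 for fibroblast, -0.11 for macrophage and -0.21 for pericyte and smooth muscle genes, and -0.20, -0.02 and -0.22 without Ang II_FI 3, with 0 called. Platelet genes (5), which bear on Vwf, summed to 11.0 to 15.4 CPM in Ang II_FI, 12.5 to 15.2 CPM in Ang II and 9.14 to 10.8 CPM in Con. Adipocyte genes (6), which bear on Cav1, summed to less than 1 CPM in every library, with Lep at 0 throughout. Red blood cell genes (5), which bear on Aqp1, summed to 84.4 to 209 CPM in Ang II_FI, 50.004 to 102 CPM in Ang II and 95.7 to 191 CPM in Con. Cardiomyocyte genes had medians of -0.21 in Ang II against Con and 0.13 in Ang II_FI against Ang II, the second being 0.21 without Ang II_FI 3. The part of these shifts in the levels of endothelial genes was not tested.

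**Figure D4:**
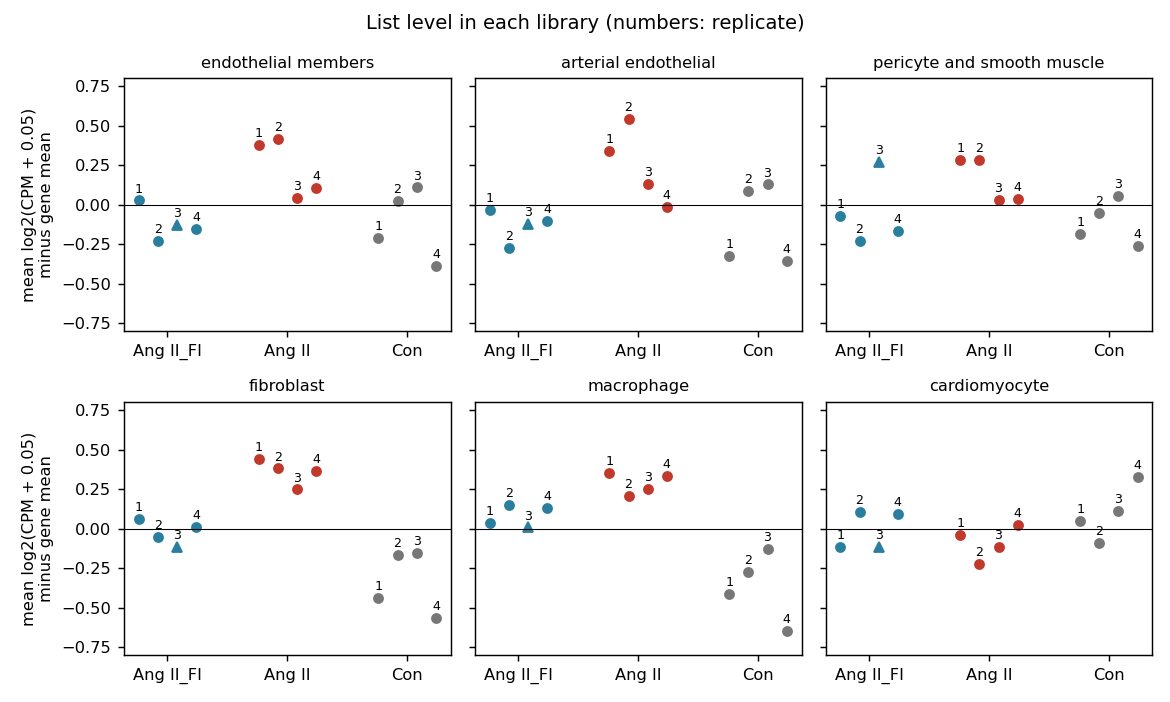
Mean log2(CPM + 0.05) of 6 gene lists in each library minus the mean of each gene over all libraries, with Ang II_FI left, Ang II in the middle and Con right, replicate numbers beside the points and a triangle for Ang II_FI 3. In these CPM, not scaled by TMM factors, the endothelial members of Ang II 3 and 4 lie within the range of Con. The fibroblast and macrophage genes of every Ang II library lie above those of every Con library.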

How the data were processed

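Ventricular RNA libraries of 12 mice, 4 animals per group, were grouped by the treatment named in the labels. The labels' protocols name TRIzol in one place and an RNeasy kit in another, and library preparation with a SMARTER kit. Raw counts for each gene, not normalized, are what the authors deposited. Tools named in the submitters' processing notes are HISAT, featureCounts (1.5.0-p3) and DESeq (1.8.3), with GRCm38 as the build. Neither the annotation release, the strand setting nor the treatment of multiply mapping reads was stated. Of 55421 genes, 27438 were at 0 throughout, and the table's 13 columns without a name or values were not used. Gene symbols that a spreadsheet had turned into dates, 27 in all, were repaired by gene ID. GENCODE M21 (GRCm38) matched 55154 IDs (99.5%) and gave coordinates and exon lengths, and RefSeq (GRCm38.p6) gave promoters.

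CPM were computed from the deposited counts and library totals, so that 3 counts equal 0.0372 to 0.0436 CPM, a floor for counting error alone. A single quasi-likelihood fit (edgeR 4.0.16 in R 4.3.3) covered all 12 libraries after the default low-count filter and TMM scaling, with no covariates, and p-values were Benjamini-Hochberg adjusted over the 17376 genes left. The procedure was tested on simulated counts in which all genes had the same spread and no library stood apart. Those settings differ from these data, so error rates here are not known from that test. The SE of a log2 fold change was derived as its absolute value divided by the square root of the quasi-likelihood F statistic. List levels used log2(CPM + 0.05). Python 3.11.15 and Biopython 1.88 served for sequences and their alignment.

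Members and gene lists were chosen with earlier results of these data known, and no list was tested as a set. Members called in any comparison, and the 6 with the smallest p in each comparison, are given in full. Other members are given by role and group means, and of each other list at most the 3 genes of smallest p in a comparison are named. Replicates of the same number did not deviate together (correlations of -0.057 to 0.105), so libraries were not paired. Other settings were DESeq2 1.42.0, limma-voom (limma 3.58.1), other scalings, filters and designs, and each library left out in turn. Chosen after seeing the data were summing Ctla2a with Ctla2b, summing Ctla2b with overlapping models, leaving out Ang II 3 and Ang II_FI 3 together, and fitting Ang II_FI and Ang II alone without Ang II_FI 3.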

Additional observations from a re-analysis of the deposited data

Results flagged for a closer look

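In each group of 4 libraries, the highest and the lowest CPM of every member was compared with the gap to its neighbour, and 6 of 102 such groups had a library further from the rest than Dixon's 95% limit. Chance flags about 1 in 20 groups. Cldn5 had 33.5 CPM in Ang II 1, against 13.5 to 16.1 CPM in the other Ang II libraries. Robo4 had 21.1 CPM in Ang II 3, the lowest of its group, against 28.0 to 29.4 CPM. In Ang II_FI, Tie1 had 89.5 CPM in library 1, against 70.9 to 74.1 CPM in the other 3, and Vwf had 42.4 CPM in library 4, against 31.6 to 32.9 CPM. Ly6c1 had 71.4 CPM in Ang II_FI 3, the library with hepatocyte transcripts, against 93.2 to 95.9 CPM in the other Ang II_FI libraries. Kdr had 94.8 CPM in Con 4, against 145 to 152 CPM in the other Con libraries.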

How the results depend on the processing

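The 3 calls of Ang II against Con, Ctla2b, Ctla2a and Gpihbp1, were kept by DESeq2, by limma-voom, with RLE factors, with total counts, without mitochondrial genes, at a mean of at least 1 CPM, in a fit of the 2 groups alone and without Ang II 3 and Ang II_FI 3. DESeq2 added Sox18 and Eng (5 members), and without a low-count filter Gpihbp1 was lost. With 1 library left out, 1 to 3 members were called, 1 without Ang II 2, Ang II 3, Ang II 4, Con 1 or Con 4. The replicate number as a block left 2, Ctla2b and Sox18 (edgeR adjusted p = 0.0479), and lost Ctla2a (0.0709) and Gpihbp1 (0.0966), although the numbers did not pair the samples. In the other comparisons 0 members were called with any library left out (0 to 0), while DESeq2 called 2 in Ang II_FI against Ang II and 1 in Ang II_FI against Con. With a library left out the member medians ranged over 0.26 to 0.43 in Ang II against Con, -0.34 to -0.22 in Ang II_FI against Ang II and 0.01 to 0.14 in Ang II_FI against Con.

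Counts over all genes moved more. In Ang II against Con 388 genes were called, but 1099 by DESeq2, 190 without a filter, 124 with the replicate block and 90 to 683 with a library left out: 112, 129, 95, 125, 197 and 90 without Ang II 2, 3 and 4 and Con 1, 2 and 4, and 683 without Ang II_FI 3. For Ang II_FI against Ang II the count was 0, but 42 by DESeq2, 1 in the 2 groups without Ang II_FI 3, 2 without Ang II 3 and Ang II_FI 3, and 0 to 1 with a library left out. For Ang II_FI against Con it was 170, but 847 by DESeq2, 64 without a filter, 48 in the 2 groups alone, 61 with the block and 41 to 220 with a library left out. The cause was not tested.

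Some log2 fold changes, most of them near 0, changed sign. In Ang II against Con these were Plvap (0.0079 with limma-voom, 0.0059 with the block), Tek (0.0031 with total counts, 0.023 without Ang II 3 and Ang II_FI 3) and Ushbp1 (0.021 and 0.10 under the same settings). Between Ang II_FI and Ang II they were Ly6c1 (0.11 in the 2 groups without Ang II_FI 3, 0.0017 with the block, 0.040 without both libraries) and Vwf (0.028 without both). Between Ang II_FI and Con they were Robo4 (-0.0057 with total counts, -0.10 without both), Rasip1 (-0.031 with total counts) and Tie1 (0.0072 without both). Leaving out 1 library turned others, with these ranges. They were -0.48 to 0.16 for Cav1, -0.17 to 0.12 for Plvap, -0.11 to 0.027 for Tek, -0.13 to 0.11 for Ushbp1, -0.20 to 0.031 for Emcn, -0.033 to 0.20 for Cdh5 and -0.019 to 0.21 for Kdr in Ang II against Con. They were -0.073 to 0.11 for Ly6c1, -0.21 to 0.022 for Vwf, -0.58 to 0.078 for Cav1 (-0.38 ± 0.33 with every library) and -0.15 to 0.0061 for Icam2 in Ang II_FI against Ang II. In Ang II_FI against Con they were -0.11 to 0.095 for Rasip1, -0.032 to 0.095 for Flt1, -0.10 to 0.14 for Robo4, -0.15 to 0.036 for Tie1, -0.22 to 0.084 for Sox17, -0.0064 to 0.21 for Vwf, -0.0018 to 0.29 for Plvap, -0.13 to 0.029 for Ptprb, -0.083 to 0.24 for Egfl7 and -0.0072 to 0.19 for Mmrn2. Each member had at least 269 counts in every library, and the common biological coefficient of variation between libraries of a group was 0.343.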
